A study of Mus musculus with 6 samples.

Results

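Haemoglobin messenger RNA was followed in dorsal root ganglion cells through the 4 adult globin genes of the mouse, Hba-a1 and Hba-a2 (alpha globin) and Hbb-bs and Hbb-bt (beta globin), which are 4 of the 27998 genes of the count table. The genes were picked because their summed counts in peptidergic neurons were higher in vitamin E deficient Ttpa-/- mice than in Ttpa+/+ mice, so values of that contrast are given below as a description, with no test. The question was how the globin molecules lie over single cells: many in a few cells, or a few in many. The study sampled dorsal root ganglion neurons of 6 mice, 1 female and 1 male in each of 3 groups. Mice 654 (female) and 657 (male) were Ttpa-/- and vitamin E deficient, at 6 months. Mice 671 (female) and 670 (male) were Ttpa-/- and vitamin E supplemented, at 6 months. Mice 698 (female) and 699 (male) were Ttpa+/+ on a basal diet, at 5 months. Ttpa encodes the alpha-tocopherol transfer protein, the liver protein that returns vitamin E to the circulation, and its loss leaves tissues short of vitamin E unless the diet supplies it. Genotype, diet and age all differ between the supplemented and the Ttpa+/+ mice and cannot be told apart. The labels say nothing of how the animals were bled or perfused, and name no sort of the cells.

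Adult haemoglobin is a tetramer of alpha and beta chains, each holding a haem group that binds oxygen. The globin genes are transcribed at a high rate in erythroblasts, and reticulocytes and young red cells still carry globin mRNA after the nucleus is lost. Alpha and beta globin mRNA at low levels is also known from some neurons and glia of rodents and humans. Expression in red cell precursors depends on GATA1 and KLF1 with remote enhancers, and the proximal promoters carry a TATA-like element, a CCAAT box and a CACCC box, the last a known site for KLF1. Hbb-bs and Hbb-bt are the adult beta globin genes of the haplotype carried by the reference strain.

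The 4 proximal promoters are shown because they let the likeness within each pair be seen. They are the 120 bases before the RefSeq start of each gene (GRCm38.p6, the build named in the submitters' notes as mm10), 5′ to 3′ on the gene's own strand. Capitals mark the TATA-like letters ATATAA, the box CCAAT and the box CACCC, on either strand.
Hba-a1: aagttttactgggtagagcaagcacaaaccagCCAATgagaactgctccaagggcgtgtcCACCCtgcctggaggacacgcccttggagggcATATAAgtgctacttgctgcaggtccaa
Hba-a2: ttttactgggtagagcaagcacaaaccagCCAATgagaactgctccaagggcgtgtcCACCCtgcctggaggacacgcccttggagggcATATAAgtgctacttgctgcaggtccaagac
Hbb-bs: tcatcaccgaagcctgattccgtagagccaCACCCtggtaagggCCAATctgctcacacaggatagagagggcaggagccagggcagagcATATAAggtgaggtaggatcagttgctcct
Hbb-bt: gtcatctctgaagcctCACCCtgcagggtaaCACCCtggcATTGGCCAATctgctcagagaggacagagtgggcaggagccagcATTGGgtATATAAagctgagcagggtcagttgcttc

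The alpha promoters lie on the plus strand at chr11:32283552-32283671 (Hba-a1) and chr11:32296372-32296491 (Hba-a2). The beta promoters lie on the minus strand at chr7:103827929-103828048 (Hbb-bs) and chr7:103813924-103814043 (Hbb-bt). The alpha promoters matched in 117 of 123 aligned columns (95.1%). The 6 other columns lie at the ends, where 1 window runs past the other, and the 117 shared bases hold no difference. The beta promoters matched in 91 of 122 columns (74.6%). Each of the 4 windows held all 3 motifs, with no overlap between matches. The same windows of 32851 RefSeq promoters held ATATAA in 4.47%, CCAAT in 21.3% and CACCC in 31.7%, and all 3 together in 94 (0.286%). The letters GATAAG, a form of the GATA motif, were in none of the 4 windows and in 3.01% of all. The TATA-like element began 28, 31, 30 and 29 bases before the start in Hba-a1, Hba-a2, Hbb-bs and Hbb-bt. For the alpha genes the distances differ because the RefSeq starts lie at different points of the shared sequence. In the alpha genes the CCAAT box lay upstream of the CACCC box. In Hbb-bs the order was the opposite, with CACCC beginning 90 bases before the start, and Hbb-bt had CACCC matches beginning at 104 and 89 bases. Matches are letters in a window, and binding was not measured.

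Near the 3′ end, the part that these libraries sequence, the alpha genes can be told apart by few bases and the beta genes by more. The coding sequences of Hba-a1 and Hba-a2 matched at 428 of 429 positions, and those of Hbb-bs and Hbb-bt at 443 of 444. The stretches around the differing base are shown with that base in capitals, counted from the A of the start codon.
Hba-a1: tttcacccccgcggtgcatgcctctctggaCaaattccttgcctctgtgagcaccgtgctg
Hba-a2: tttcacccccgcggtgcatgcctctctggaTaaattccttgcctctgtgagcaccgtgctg
Hbb-bs: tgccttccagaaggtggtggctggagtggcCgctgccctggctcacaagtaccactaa
Hbb-bt: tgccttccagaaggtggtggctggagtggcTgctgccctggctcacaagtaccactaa

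The substitutions are C381T from Hba-a1 to Hba-a2 and C417T from Hbb-bs to Hbb-bt. In the GENCODE models the whole 3′ untranslated region of Hba-a1 (74 bases) is also the start of that of Hba-a2 (90 bases). The beta 3′ untranslated regions matched in 94 of 134 aligned columns (70.1%). RefSeq sets the 3′ ends of Hba-a1, Hba-a2 and Hbb-bs further downstream. These lengths, and the windows that follow, therefore depend on the annotation. Of the 201 windows of 100 bases in the last 300 bases of the transcript, 101 of Hba-a1 occurred exactly in Hba-a2 and 42 of Hbb-bs occurred exactly in Hbb-bt. No source used here says how the authors' counting placed such reads, so the split within a pair is uncertain, more so for the alpha pair. A sum over a pair does not depend on that split, but it would be lowered where shared reads went uncounted, and more for the alpha pair, which also bears on each alpha share given below.

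The table held 21685 cells with 12538785 to 19383933 unique molecular identifiers (UMIs, 1 per captured molecule) per mouse. After filters on genes and mitochondrial share and removal of 634 called doublets, 21024 cells remained in 22 clusters, and 20523 of them were in neuron clusters. The median cell held 2499.5 (mouse 670) to 4959 UMIs (mouse 657). Clusters were named from marker sets: PEP-like (peptidergic nociceptors), NP1-like and NP3-like (non-peptidergic sensory neurons), TH-like (C-low-threshold mechanoreceptors), NF-like (neurofilament-rich large neurons), macrophage-like and endothelial-like. 4 clusters stayed without a name. Clusters 7, 14 and 19 were neurons led by Mrgpra3, Mlc1 and Foxp2, and cluster 18 was led by Dcn. The mice are separate animals per the labels. 261 barcodes occurred in more than 1 library (522 cells).

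Globin molecules were held mostly by very few cells. The whole table held 6737 UMIs of the 4 genes and the kept cells 6711. Of the kept cells, 20181 had none, 712 had 1, 63 had 2 and 17 had 3 to 9. Another 33 cells had 10 to 99 and 18 had 100 or more, and no cell had 8 or 9. The 51 cells with 10 or more, called globin-high below, were 0.243% of all kept cells (exact 95% interval 0.181 to 0.319%) and held 5808 UMIs, 86.5% of the total. The 10 cells with the most held 3343 UMIs, 49.8% of the total. Intervals in this section cover counting error only.

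In neurons, the share of each mouse's globin UMIs that lay in globin-high cells was 87.9% in mouse 654, 80.0% in 657, 94.8% in 670, 83.1% in 671, 35.2% in 698 and 69.8% in 699. All 4 Ttpa-/- mice lay above both Ttpa+/+ mice. The cells behind these shares numbered 15, 3, 21, 6, 2 and 3, in the same order. Mice 654 and 670, with the most globin-high neurons, also had the lowest median UMIs per cell (2856 and 2499.5, against 3478 to 4959 in the others). The same mice had the most macrophage-like cells, 33 and 48 against 1 to 16. The summed level of the macrophage marker list in all kept cells was 19.98 CPM (UMIs scaled to the summed UMIs of the same cells) in 654 and 29.91 in 670, against 2.60 to 10.1 in the other mice. The part of depth and of other cells in the number of globin-high cells was not tested.

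**Figure D1:**
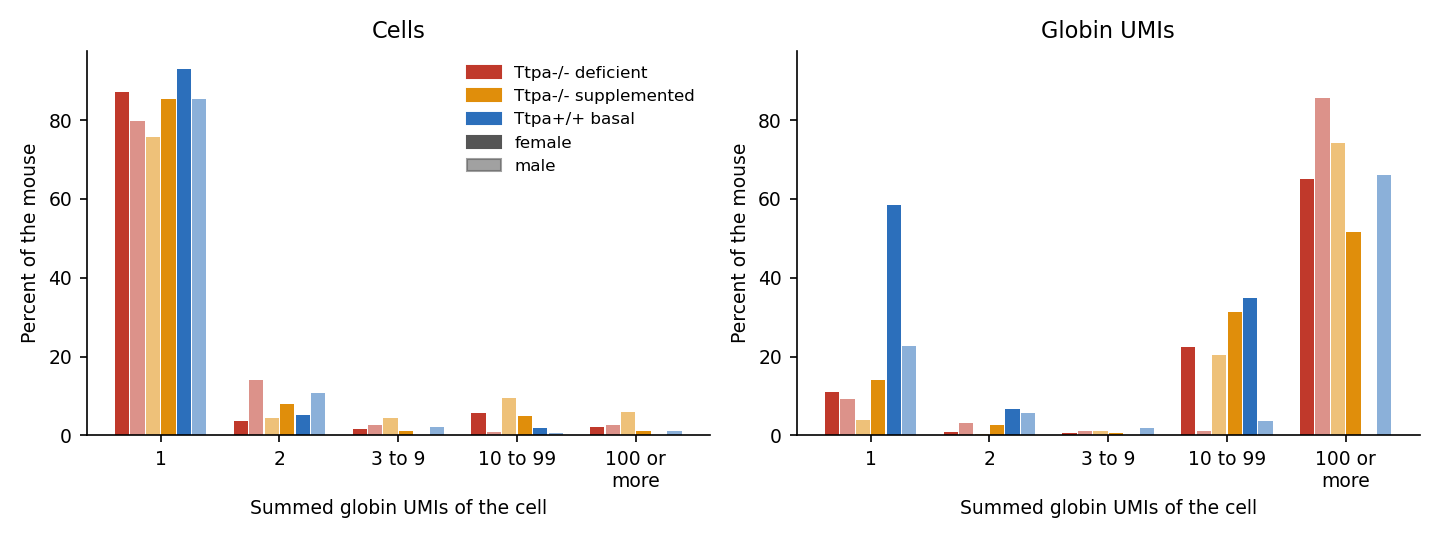
Left, percent of each mouse's globin-positive cells by summed globin UMIs of the cell; right, percent of each mouse's globin UMIs in those cells. Colours are groups, and darker bars are females and lighter bars males. Cells of 1 UMI make up most positive cells in all 6 mice, while cells of 10 or more hold most globin UMIs in every mouse but 698.

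Globin-high cells were found in 16 of the 22 clusters. PEP-like neurons held 15 among 6997 cells (0.214%), NP1-like 14 among 3062 (0.457%), NF-like 10 among 2636 (0.379%) and TH-like 4 among 4003 (0.0999%). NP3-like neurons held 2, cluster 14 held 3, cluster 19 held 2 and the endothelial-like cells held 1. None was seen among the 1022 cells of cluster 7, which allows a share of up to 0.360%, nor in cluster 18 or the 113 macrophage-like cells. The exact intervals of PEP-like (0.120 to 0.353%), NP1-like (0.250 to 0.766%) and NF-like neurons (0.182 to 0.697%) overlap.

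The cell with the most globin was an NF-like neuron of mouse 670 with 458 globin UMIs of 3741 in all, 93 of Hba-a1, 94 of Hba-a2, 221 of Hbb-bs and 50 of Hbb-bt. A cell of cluster 19, also of 670, had the highest globin share, 348 of 1379 UMIs (25.2%). A PEP-like neuron of mouse 671 had 321 of 10600 UMIs, and a PEP-like neuron of 657 had 361 of 7902. Over the 51 cells, the non-globin UMIs divided by the median of cells of the same type and mouse were 0.285 at the lowest, 1.12 at the median and 4.35 at the highest. None was called a doublet, though the doublet score stood at a median percentile of 80.2 among the cells of its mouse (0.913 to 99.9). The barcode of 2 globin-high cells also occurred in another library.

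Erythroid markers other than globin were nearly absent. Of 15 such markers 14 were in the table, and Gata1, the erythroid transcription factor, the blood group antigen Kel, Trim10 and Tspo2 had no UMI in any kept cell. Alas2, the erythroid enzyme that starts haem synthesis, had 12 UMIs in all, 8 of them in 7 globin-high cells (33.5 CPM, exact 95% interval 14.5 to 66.0, against 0.042 CPM in the other cells). Slc4a1, the red cell anion exchanger, Klf1, Epb42, Hemgn, Rhag, Rhd and Ermap had 0 UMIs in globin-high cells and between 1 and 10 in the rest. The 51 cells together held 238897 UMIs, so 0 UMIs allows up to 15.4 CPM. The pan-neuronal marker list stood at 13085 CPM in the globin-high cells and 13112 CPM in the others. The summed erythroid list gave 0.67, 0.62, 1.07, 0.25, 0.59 and 0.91 CPM in mice 654, 657, 670, 671, 698 and 699, an order that differs from that of globin, with 699 above 654.

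Levels over all neurons differed widely between mice, also within a group. Hba-a1 stood at 28.8 CPM in mouse 654 (379 UMIs), 7.22 in 657 (127), 52.8 in 670 (630), 9.78 in 671 (156), 1.80 in 698 (30) and 8.02 in 699 (148). Hba-a2 stood at 25.2 CPM in 654 (332 UMIs), 10.3 in 657 (181), 47.3 in 670 (564), 10.8 in 671 (173), 5.11 in 698 (85) and 13.2 in 699 (243). In both alpha genes 670 was highest and 698 lowest, and in each group 1 mouse stood far above the other. Hbb-bs had 52.5 CPM in 654 (691 UMIs), 16.9 in 657 (298), 109 in 670 (1298), 16.0 in 671 (256), 3.79 in 698 (63) and 15.5 in 699 (287). Hbb-bt had 9.26 CPM in 654 (122 UMIs), 2.84 in 657 (50), 16.4 in 670 (195), 2.19 in 671 (35), 0.060 in 698 (1) and 0.921 in 699 (17). Both beta genes had the same order at the top, 670 before 654, and were lowest in the Ttpa+/+ mice, for Hbb-bs by little (15.5 in 699 against 16.0 in 671). The Hbb-bt value in 698 rests on 1 UMI, under the floor of 3 counts (0.180 CPM).

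**Figure D2:**
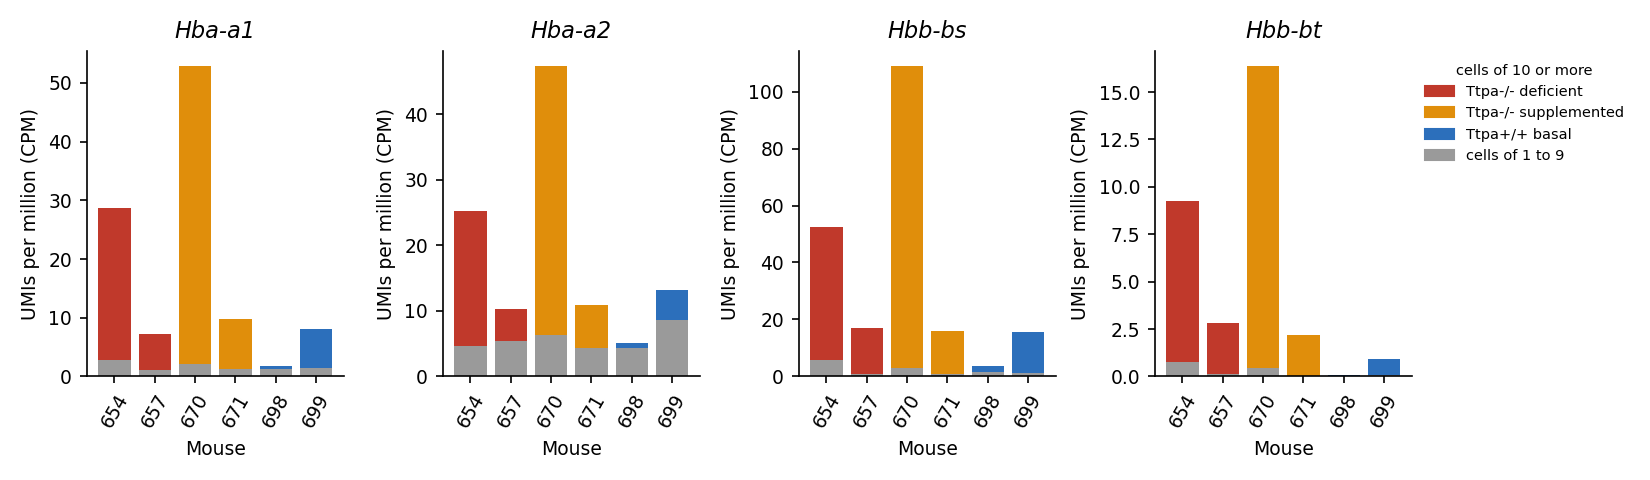
Level of each globin gene over all neurons of a mouse in CPM, with the coloured part from globin-high cells (10 or more globin UMIs) and the grey part from all other cells. Globin-high cells hold 82.4% or more of Hba-a1, Hbb-bs and Hbb-bt in every mouse but 698, and the grey part is at most 8.63 CPM in any panel.

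Without the globin-high cells, the neurons of the 6 mice held 1.138 to 2.82 CPM of Hba-a1, 4.27 to 8.63 of Hba-a2 and 0.740 to 5.80 of Hbb-bs. Hbb-bt was at most 0.763 CPM, and it was 0 in 671 and 698, with an upper limit of 0.232 and 0.222 CPM (exact 95% Poisson interval). For Hba-a2 the highest value without these cells was that of 699, a Ttpa+/+ mouse, and the lowest that of 698, the other. For Hbb-bs it was that of 654, at 5.80 CPM from 76 UMIs, against 2.96 in 670 and 0.740 to 1.44 in the other 4 mice.

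Globin-high cells carried both kinds of globin. All 51 held both alpha and beta globin and 35 held all 4 members. Hbb-bt was missing from 16 and Hba-a1 from 1, and Hbb-bs had the most UMIs in 46. Alpha globin made up 43.1% of their 5808 globin UMIs (exact 95% interval 41.8 to 44.3%). By mouse it was 45.7% in 654, 38.3% in 657, 42.9% in 670, 46.2% in 671, 36.5% in 698 and 42.5% in 699, and the exact 95% interval of 657 (35.0 to 41.6%) lies below that of 654 (43.0 to 48.4%). Hba-a2 took 44.0% of the alpha UMIs (42.03 to 46.0%). Single cells varied widely, from 10 to 78.9% for the alpha share and from 14.3 to 100% for the Hba-a2 share of alpha. In the 18 cells of 100 or more globin UMIs, the alpha share ran from 28.6 to 50.6% with a median of 43.6%, and the Hba-a2 share of alpha from 36.2 to 50.3% with a median of 44.4%. Across the 51 cells log2 alpha and log2 beta UMIs (1 added) had a Pearson r of 0.916, as a description of cells that share 6 libraries and were chosen by the sum of both.

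The Hbb-bt share of beta globin differed between the mice. In globin-high cells it was 15.4% in 654 (exact 95% interval 12.9 to 18.2%), 14.1% in 657 (11.3 to 17.4%), 13.1% in 670 (11.4 to 14.9%) and 12.6% in 671 (8.96 to 17.1%). In the Ttpa+/+ mice it was 2.5% in 698 (0.0633 to 13.2%, 1 of 40 beta UMIs) and 5.73% in 699 (3.31 to 9.15%, 16 of 279). The interval of 699 lies below those of 654, 657 and 670 and overlaps that of 671. Single cells did not separate: among cells of 100 or more, the share was 1.59 to 21.7% with a median of 13.4% in 16 Ttpa-/- cells and 3.00 and 7.74% in the 2 Ttpa+/+ cells. Since Hbb-bt entered the choice of genes with these mice, the share was not tested.

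**Figure D3:**
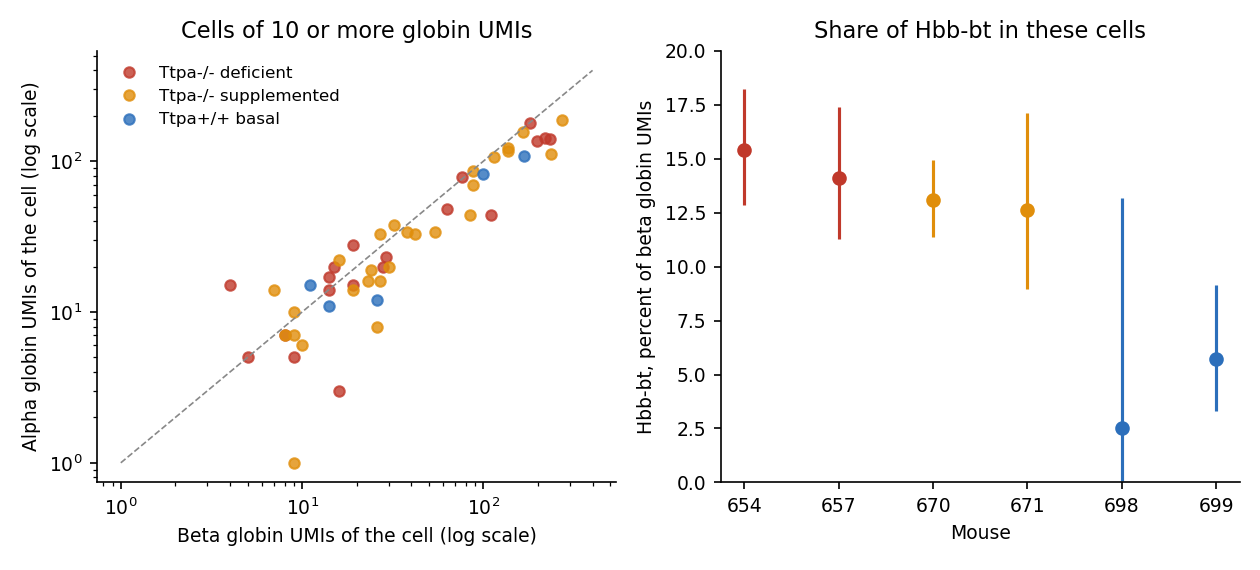
Left, alpha against beta globin UMIs of each of the 51 globin-high cells on log axes, coloured by group, with the line of equality dashed; right, Hbb-bt as a percent of beta globin UMIs over these cells per mouse, with exact 95% intervals for counting error. Cells lie on both sides of the line, with alpha at 43.1% of all UMIs, and the 4 Ttpa-/- mice sit between 12.6 and 15.4% on the right.

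Pooled over the mice, cells with 1 to 9 globin UMIs held mostly Hba-a2. Of these 792 cells, 712 had a single globin UMI and so could hold 1 member only. In all, 456 held Hba-a2 alone, 122 Hba-a1 alone, 164 Hbb-bs alone and 19 Hbb-bt alone, and 17 held both alpha and beta. Counted over molecules, alpha globin was 76.3% of their 903 globin UMIs (73.4 to 79.0%). By mouse it was 52.1% in 654, 88.0% in 657, 71.5% in 670, 85.8% in 671, 78.8% in 698 and 88.1% in 699. The interval of 654 (44.8 to 59.3%) overlaps that of its own globin-high cells (43.0 to 48.4%), and those of the other 5 mice lie above theirs. Hba-a2 was 77.8% of the alpha UMIs (74.5 to 80.8%). In every mouse the Hba-a2 share of alpha was above the 44.0% of the globin-high cells, from 63.0% in 654 to 85.9% in 699. Hba-a2 did not lead everywhere. In mouse 654 the cells of 1 to 9 held 81 Hbb-bs UMIs against 63 of Hba-a2. Outside the 6 neuron clusters described next, neurons that were not globin-high held 141 Hbb-bs UMIs against 93 of Hba-a2. Inside those clusters the counts were 45 and 440.

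Low-level Hba-a2 was unevenly spread over the neuron clusters. Cells with 0 to 9 globin UMIs in cluster 12, NF-like neurons led by Ptgfr, held 34.2 CPM of Hba-a2 (exact 95% interval 29.3 to 39.5, 179 UMIs). 146 of the 604 cells (24.2%) had at least 1 Hba-a2 UMI, at a median depth of 7585.5 UMIs, and 29 had 2 or more. Cluster 8 (PEP-like, led by Fam19a1) followed at 18.1 CPM, cluster 9 (NF-like, Calb1) at 12.4, cluster 11 (PEP-like, Smr2) at 10.4, cluster 13 (NF-like, Cadps2) at 10.1 and cluster 7 (Mrgpra3) at 6.33. NF-like neurons of cluster 10, led by the proprioceptor marker Pvalb, held 1.80 CPM. These 6 clusters were singled out after their values were seen, so they get no test.

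The pattern was seen in each mouse, though the same mice gave the pooled values by which the clusters were singled out. In cluster 12 Hba-a2 stood at 32.8 CPM in 654, 38.8 in 657, 37.6 in 670, 23.1 in 671, 26.9 in 698 and 39.8 in 699. Over the 6 clusters together it was 15.8, 15.5, 18.7, 12.1, 11.3 and 19.1 CPM in that order, against 1.83, 1.06, 1.84, 0.827, 1.65 and 1.46 in the other neurons. The 6 clusters were higher in 6 of 6 mice, and the 3 groups overlapped. The other members did not share it at that size. Over all mice the 6 clusters and the other neurons held 2.40 and 1.27 CPM of Hba-a1, 1.59 and 2.16 of Hbb-bs, and 0.177 and 0.199 of Hbb-bt. Depth differed too, with median UMIs of 5511.5 in the 6 clusters and 3247 in the others. With every cell thinned to 1000 UMIs, Hba-a2 was seen in 60 of 4467 cells of the 6 clusters (1.34%, 1.03 to 1.73%) and in 22 of 15879 others (0.139%, 0.0868 to 0.210%). Reads shared with Hba-a1 could move counts between the 2 genes, within the limit given above.

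**Figure D4:**
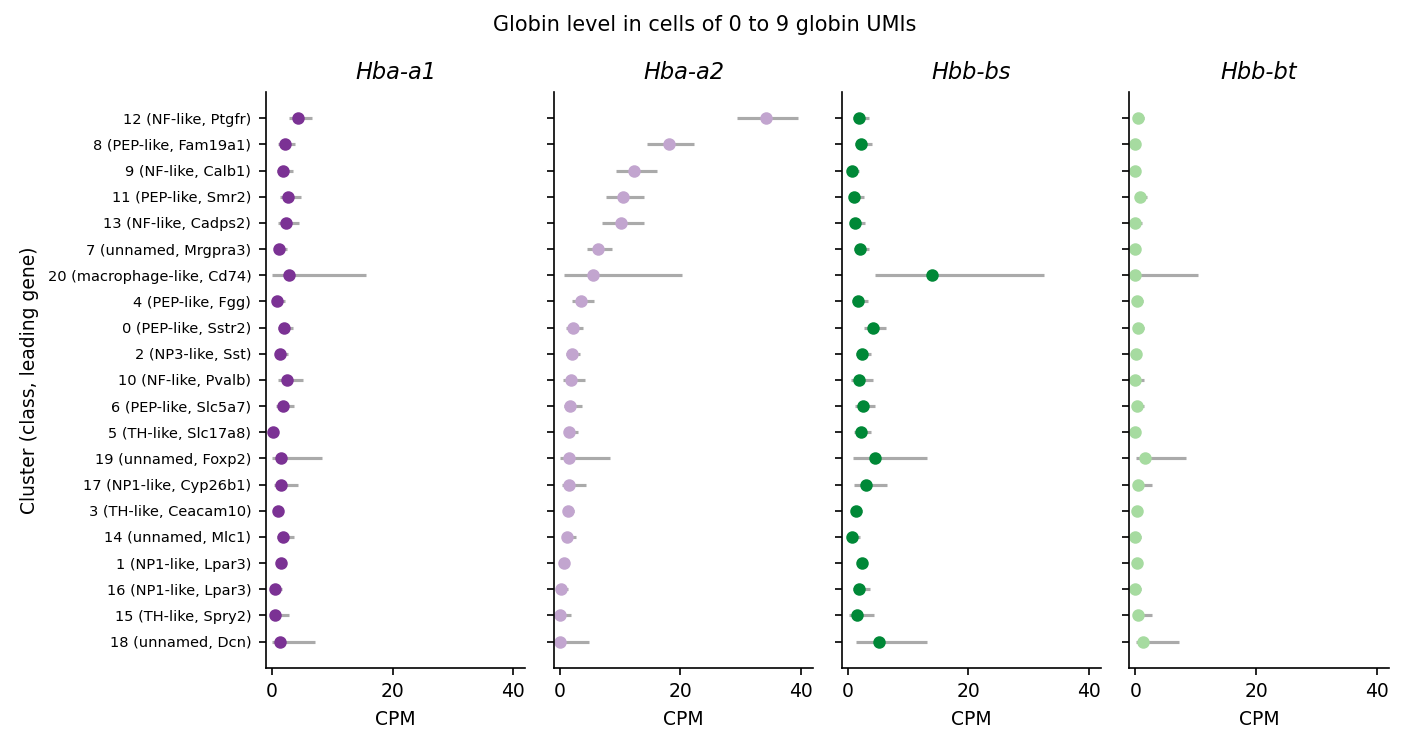
Level in CPM of each globin gene in cells with 0 to 9 globin UMIs, for clusters with 100 or more such cells, ordered by Hba-a2; points are pooled over the 6 mice and lines are exact 95% Poisson intervals. Hba-a2 reaches 34.2 CPM in cluster 12 while Hbb-bs there is at 1.91 CPM.

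By cell type, summed globin followed where the globin-high cells fell. NP1-like neurons held 890 globin UMIs in mouse 654 (221 CPM, 861 of them in 6 cells), 163 in 657 (43.0 CPM, 1 cell), 353 in 670 (102 CPM, 5 cells), 44 in 671 (12.6 CPM, 1 cell), 9 in 698 (2.99 CPM, none) and 31 in 699 (13.3 CPM, 1 cell). TH-like neurons held 142 UMIs in 654 and 351 in 670, with 111 and 345 of them in 1 and 3 cells, and 2 to 12 UMIs in each other mouse. NP3-like neurons held 393 UMIs in 670, 387 of them in 2 cells, and 2 to 14 elsewhere. NF-like neurons held 608 UMIs in 670 (560 in 4 cells) and 62 to 129 in the others. Outside globin-high cells, NF-like neurons held 15.7 to 30.01 CPM of the 4 genes together over the 6 mice, PEP-like neurons 8.62 to 17.3 CPM and NP1-like neurons 1.72 to 8.72 CPM.

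PEP-like neurons were the cell type in which the genes had been picked. Their Hba-a1 UMIs were 83 in 654, 86 in 657, 163 in 670, 112 in 671, 15 in 698 and 8 in 699, or 32.6, 19.6, 60.9, 27.9, 3.40 and 1.55 CPM. Hba-a2 had 74, 97, 133, 114, 31 and 50 UMIs, or 29.0, 22.1, 49.7, 28.4, 7.03 and 9.66 CPM. All 4 Ttpa-/- mice lay above both Ttpa+/+ mice in both alpha genes. Hbb-bs had 130, 179, 284, 200, 30 and 13 UMIs, or 51.0, 40.8, 106, 49.8, 6.80 and 2.51 CPM. Hbb-bt had 20, 44, 43, 33, 0 and 1 UMIs, or 7.85, 10.0, 16.1, 8.22, 0 and 0.193 CPM. The beta genes gave the same split, with no overlap between the supplemented and Ttpa+/+ mice in 4 of 4 members, where 21.9% of the 11312 genes tested lay higher in this way.

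Supplemented Ttpa-/- mice, which took no part in picking the genes, were compared with the Ttpa+/+ mice, which did. The groups thus share their reference with the choosing contrast, and the result is not independent of it. In PEP-like neurons the edgeR quasi-likelihood test (Benjamini-Hochberg over all genes tested, threshold 0.05) called the 4 members higher, among 5 of 11312 genes in all (0.0442%). Since the Ttpa+/+ values had helped to pick the genes, the count and the adjusted p-values below are a description and carry no independent support. The log2 fold change was 4.09 ± 0.38 (SE) for Hba-a1, 2.12 ± 0.26 for Hba-a2 (adjusted p = 0.000191, edgeR) and 4.02 ± 0.34 for Hbb-bs (adjusted p = 1.82e-06, edgeR). Hba-a1 stood at 1.55 and 3.40 CPM in the Ttpa+/+ mice and passed the count filter through the mice where it is high. Its call is therefore no finding. Hbb-bt had 76 and 1 UMIs in the groups, so it passed the count filter only through the mice where it is high, and its call is no finding; the ratio of the pooled levels was 109 (exact 95% interval 19.0 to 4356). The fifth gene called was Wdfy1, which binds phosphoinositides on endosomes. The median log2 fold change of all genes tested was −0.0021.

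Few cells held most of the globin in these sums. The globin-high cells numbered 6 in 670, 3 in 671 and 1 in 698, with none in 699, and held 583 of 623, 424 of 459 and 38 of 76 globin UMIs. Without the cells of 10 or more, an alternative added after the data were seen that removes cells by the measured outcome, Hba-a2 had a log2 fold change of −0.19 ± 0.33 and Hbb-bs of 0.52 ± 0.77 (adjusted p = 0.993 for both, edgeR, with 0.00884% of genes called), and Hba-a1 and Hbb-bt no longer passed the count filter. Without the 1 cell of each mouse and type that held the most, the 4 values were 3.39, 1.43, 4.50 and 4.43 with adjusted p of 0.161, 0.588, 0.104 and 0.993 in the order Hba-a1, Hba-a2, Hbb-bs and Hbb-bt and no member called. Outside globin-high cells the summed level was 17.3, 10.3, 15.02, 8.75, 8.62 and 13.9 CPM in mice 654, 657, 670, 671, 698 and 699, and the groups overlapped. In a leave-one-out refit the log2 fold change of Hba-a1 ran from 3.50 without 670 to 4.69 without 698, of Hba-a2 from 1.73 without 670 to 2.47 without 671 and of Hbb-bs from 3.43 without 670 to 4.82 without 698.

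**Figure D5:**
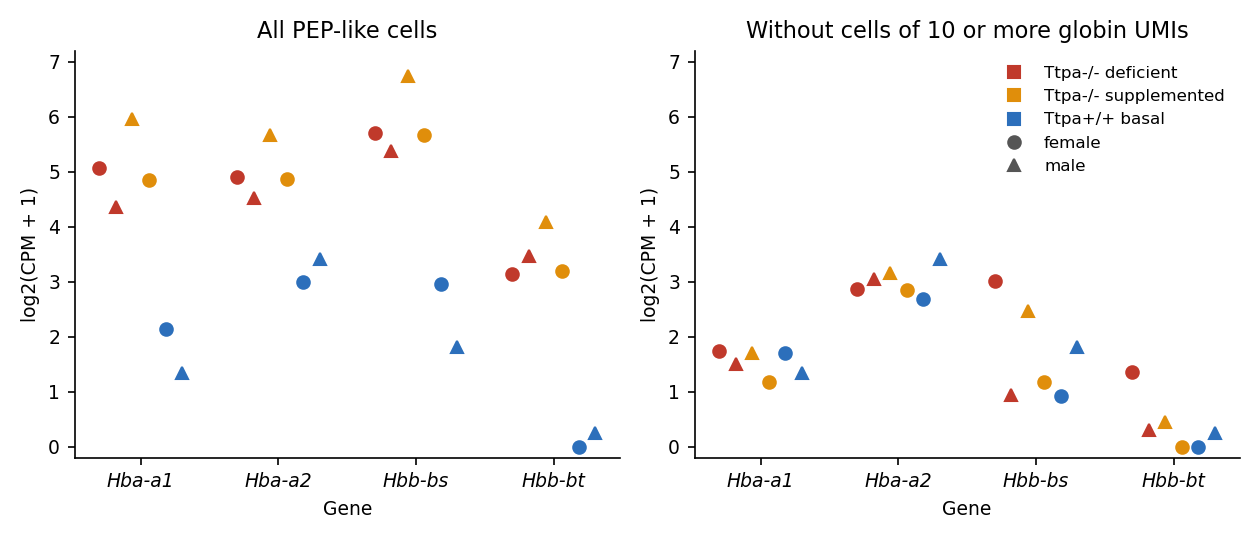
Level of the 4 genes in PEP-like neurons as log2(CPM + 1), 1 point per mouse, coloured by group with circles for females and triangles for males; left, all PEP-like cells, right, without globin-high cells. On the left the Ttpa+/+ mice lie below the other 4 for each gene, and on the right they lie among them.

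Over all neurons and in the other types and clusters the same comparison called no member. In all neurons the log2 fold changes were 2.59 ± 0.78 for Hba-a1, 1.60 ± 0.59 for Hba-a2, 2.62 ± 0.78 for Hbb-bs and 4.08 ± 0.98 for Hbb-bt (edgeR adjusted p = 0.804, 0.9998, 0.779 and 0.566), and 0 of 13337 genes were called (0%), with 503 at an unadjusted p under 0.05. Both supplemented mice lay above both Ttpa+/+ mice for 3 of 4 members, all but Hba-a2, against 18.3% of genes tested. Without mouse 670 the values fell to 0.95, 0.21, 0.69 and 2.07. In NP1-like neurons 0 of 4 members were called where 0.161% of genes were, with log2 fold changes of 2.68 for Hba-a1, 2.77 for Hba-a2 and 2.88 for Hbb-bs, and no Hbb-bt UMI in either Ttpa+/+ mouse. No member was called in NF-like or TH-like neurons (0% of genes in each), where Hbb-bt did not pass the filter, and none passed it in NP3-like neurons. In cluster 14, neurons led by Mlc1, Hba-a1 alone passed it and stood the other way, at −5.74 ± 1.46 (edgeR adjusted p = 0.209, with 0.087% of genes called). Its Hba-a1 UMIs there were 12 in 654, 0 in 657, 1 in 670, 0 in 671, 2 in 698 and 114 in 699, where 112 lay in 2 globin-high cells. Across the 5 types and all neurons edgeR called 4 of the 18 tests of a member. On the same mice DESeq2 and limma-voom also called 4 each. No share of all genes called is given for these tools, here or in the contrasts below. All 18 had an unadjusted p under 0.05 in edgeR, as did 3.21% (TH-like) to 7.48% (NP1-like) of all genes tested. These tests share the Ttpa+/+ mice that helped to pick the genes, and all neurons include the cells of each type. The count of 18 is therefore a description and no independent support. With no filter on low counts edgeR called 24 of 24 tests higher, where it called 0.302% of genes in PEP-like and 0.627% in all neurons.

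The diet contrast within Ttpa-/- shares the deficient mice with the choice of genes. No member was called between deficient and supplemented mice in any of the 18 tests by edgeR, DESeq2 or limma-voom, with 7, 0 and 4 at an unadjusted p under 0.05. Of all genes, 0% were called in PEP-like, NF-like, TH-like and all neurons and 0.01% in NP1-like neurons. An unadjusted p under 0.05 in edgeR was met by 2.19% (TH-like) to 5.12% (NP1-like) of genes. With no filter on low counts 17 of 24 tests were called, 13 lower and 4 higher in deficient mice, where 0.135% of genes in all neurons were. The PEP-like log2 fold changes, deficient over supplemented, were −0.76 ± 0.28 for Hba-a1, −0.59 ± 0.23 for Hba-a2, −0.73 ± 0.26 for Hbb-bs and −0.34 ± 0.34 for Hbb-bt (adjusted p = 0.999 or above, edgeR). The mice of the 2 groups overlapped for each member, where 13.1% of genes lay higher in both deficient mice. In all neurons the values ran from −0.83 to −0.59 with standard errors of 0.57 to 0.72. In NP1-like neurons the sign was the opposite, from 0.97 to 2.28, and 0 of 4 were called.

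The contrast that chose the genes is given for scale. In PEP-like neurons the deficient mice stood above the Ttpa+/+ mice with fitted log2 fold changes of 3.33 for Hba-a1, 1.53 for Hba-a2 and 3.28 for Hbb-bs, in a comparison that called 0.0619% of 11312 genes. In all neurons the fitted values were 1.80, 0.91 and 1.80 in that order and 3.50 for Hbb-bt. In PEP-like neurons without globin-high cells Hba-a2 was at −0.19 and Hbb-bs at 0.89.

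Sex was no part of the choice. Females over males, with group as a term, gave log2 fold changes in all neurons of −0.81 ± 0.63 for Hba-a1, −0.75 ± 0.45 for Hba-a2, −1.06 ± 0.61 for Hbb-bs and −0.82 ± 0.68 for Hbb-bt (adjusted p = 0.9999 for each, edgeR). No member was called by edgeR in the 18 tests, with 3 at an unadjusted p under 0.05, and DESeq2 and limma-voom called none, with 0 and 4. Of all genes, 0.0796% were called in PEP-like, 0.0684% in NF-like, 0.131% in NP1-like, 0.0504% in TH-like and 0.0675% in all neurons. An unadjusted p under 0.05 in edgeR was met by 2.26% (TH-like) to 6.85% (PEP-like) of genes. With no filter 12 of 24 tests were called, 11 of them lower in females, where 0.166% of genes in all neurons were. Without mouse 654 the log2 fold changes of the 4 members in all neurons were −2.96 to −1.77, and without 657 they were −2.95 to −1.76. Without 671 the values were 0.07 to 0.93, so the direction rests on single mice.

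The share of neurons with a globin UMI was compared after thinning each cell to 1000 UMIs, which left out 127 neurons of mouse 670. It was 1.88% in 654, 0.619% in 657, 1.40% in 670, 0.945% in 671, 0.654% in 698 and 0.766% in 699, with the supplemented mice above the Ttpa+/+ mice by 0.465 percentage points (exact permutation test, two-sided, p = 0.33, adjusted over 9 comparisons 0.75). Between 2 and 2 mice this test cannot go below 0.33. Females exceeded males by 0.231 points (exact permutation p = 0.6, adjusted 0.857; the least possible is 0.1). Unthinned, the shares were 4.80, 4.04, 3.47, 2.81, 3.49 and 5.64%, and the supplemented mice lay 1.42 points below the Ttpa+/+ mice. The share of globin-high neurons was 0.387, 0.109, 0.548, 0.167, 0.0623 and 0.0919%, above in both supplemented mice (exact permutation p = 0.33, adjusted 0.75). It was nearly as low in the deficient mouse 657 as in 699. Outside the neurons, the 113 macrophage-like cells held 8 globin UMIs at a median depth of 2470, at most 1 per cell.

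Other globins were listed apart from the 4 members. The embryonic genes Hbb-bh1, Hbb-y and Hba-x and the gene Hbb-bh2 had no UMI, and the names Hbb-b1 and Hbb-b2, the genes of another beta haplotype, matched no row. Hbq1b, a theta globin whose gene lies between the alpha genes, had 59 UMIs, none in globin-high cells. Ngb, the neuronal haem protein neuroglobin, stood at 20.05, 17.0, 17.0, 15.9, 14.9 and 16.8 CPM in neurons of mice 654, 657, 670, 671, 698 and 699. Cygb, cytoglobin, stood at 17.8, 23.7, 26.8, 24.9, 18.8 and 31.5 CPM. Neither followed the adult globins over the mice. In globin-high and other cells Ngb was at 16.7 and 17.4 CPM and Cygb at 33.5 and 24.5 CPM. With supplemented against Ttpa+/+ mice, 0 of 3 tested members of this list were called, with log2 fold changes of 0.014 ± 0.15 for Ngb, −0.48 ± 0.61 for Hbq1b and −8.3e-05 ± 0.22 for Cygb.

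Genes of haem and iron were compared in all neurons in the same contrast, where edgeR called 0 of 13337 genes. Haem synthesis had 11 of 11 measured genes tested and none called, with a median log2 fold change of −0.060 against −0.014 over all genes tested. Alas1, the housekeeping enzyme of the opening step of haem synthesis, was at −0.19 ± 0.21 and Abcb10, a mitochondrial transporter, at −0.11 ± 0.15. Of 16 genes handling haemoglobin, haem and iron, 12 were tested and none called, with a median of −0.035. Hmox1, the haem oxygenase that breaks down haem, had the smallest p of the list at 0.54 ± 0.16 (edgeR adjusted p = 0.834), with 27.3 and 29.96 CPM in the supplemented mice, 21.2 and 17.3 in the Ttpa+/+ mice and 30.8 and 23.8 in the deficient mice. Both supplemented mice lay above both Ttpa+/+ mice for Hmox1, as they did for 18.3% of the 13337 genes tested. Tfrc, the transferrin receptor, was at −0.25 ± 0.13, Fth1, the ferritin heavy chain, at −0.21 ± 0.14 and Lrp1, a receptor for haemopexin-bound haem, at 0.15 ± 0.18. Hp and Hpx, haptoglobin and haemopexin, had no UMI.

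Reticulocyte genes that other cells also use had 14 of 14 measured members tested and none called, with a median of −0.089. Prdx2, a red cell peroxiredoxin, was at 0.029 ± 0.14, Bnip3l, a receptor for mitochondrial removal, at 0.00086 ± 0.14 and Fam46c at −0.56 ± 0.42. Of 12 regulators of globin genes, 6 were tested and none called, with a median of 0.046. Ldb1, the looping cofactor, was at 0.15 ± 0.18, Zbtb7a, a repressor of fetal globin in humans, at 0.092 ± 0.14, Lmo2 at −0.32 ± 0.26 and Bcl11a, another repressor of fetal globin, at −0.11 ± 0.14. None of the 14 erythroid markers passed the count filter. Summed over each list, haem synthesis stood at 364 CPM in globin-high cells and 308 in other cells, and the haemoglobin, haem and iron list at 9422 and 10113.

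Likeness to globin was measured as Pearson's r of log2(CPM + 1) over 48 sums of mouse and cell type, which share libraries and depth, so r is a description. Between members r ran from 0.689 (Hba-a2 with Hbb-bt) to 0.889 (Hbb-bs with Hbb-bt). Among 11195 other genes with 200 or more UMIs, the 5 highest were Nudcd3 (0.586), Atg4b (0.566), Serf2 (0.553), Polr1b (0.553) and Mapre3 (0.542), all below the lowest pair of members. None of the 5 was called between supplemented and Ttpa+/+ mice in all neurons, where their log2 fold changes ran from 0.06 to 0.78 (edgeR).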

How the data were processed

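The analysis began from the UMI counts that the authors deposited, 1 table of whole numbers for all cells of the 6 mice. Per the labels' protocols, droplet libraries (Chromium 3′ kit v2) were pooled and sequenced with paired 100 bp reads on an Illumina HiSeq4000. Per the submitters' processing notes, bcl2fastq 2.17.1.14, Cell Ranger 2.0.1, Seurat 2.3.0, limma 3.32.10 and mm10 were used. The selection of cells, and the counting of reads common to 2 globin genes, are not given in the sources used.

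Cells needed 500 genes and no more than 20% of UMIs from mitochondrial genes, and doublets were called per mouse (scrublet, 0.8% per 1000 cells, since its automatic threshold marked 45 cells). Clusters came from scanpy 1.11.5 (2000 variable genes, 30 components, 15 neighbours, Leiden resolution 1) and were named from marker sets by a rule set after the clusters were seen. Over the mice, platelet markers summed to 11.7 to 16.5 CPM, fibroblast markers to 9.88 to 40.7, neutrophil markers to 0.56 to 1.23 and B-cell markers to 5.24 to 8.32, and T-cell markers had no UMI.

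UMIs were summed per mouse over types with 20 or more cells in every mouse, and over all neurons. edgeR's quasi-likelihood test (TMM, filterByExpr, 1 mean per group, all 6 mice) was fitted to all genes after a test on simulated data. Promoters are from RefSeq (GRCm38.p6), and coding sequences and untranslated regions from GENCODE on GRCm38. All 4 genes matched by symbol, with 3 exons each. The GENCODE models of Hba-a1, Hba-a2 and Hbb-bt start upstream of the RefSeq starts. Those of Hba-a1, Hba-a2 and Hbb-bs end before the RefSeq 3′ ends.

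The 4 genes, the lists and the tests were chosen with earlier results of these data known. Genes named beside the members are, per list, up to 2 per direction with the smallest p in all neurons between supplemented and Ttpa+/+ mice, and the 5 most alike in level; some genes of the lists are not reported here. Alternatives were RLE scaling, no count filter, limma-voom, DESeq2, a sex term, leaving out mice in turn, keeping doublets, stricter cell filters, thinning, other resolutions, cell-by-cell gating and removal of the cells with most globin.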

Additional observations from a re-analysis of the deposited data

Results flagged for a closer look

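The diet contrast within Ttpa-/- mice ran in opposite directions in the sexes. On log2(CPM + 1) over all neurons, the 4 genes summed were 1.55 higher in the deficient female (654) than in the supplemented female (671), and the deficient male (657) stood at −2.56 relative to the supplemented male (670). Each member showed it, with 1.47 in females and −2.71 in males for Hba-a1, 1.15 and −2.10 for Hba-a2, 1.65 and −2.62 for Hbb-bs, and 1.68 and −2.18 for Hbb-bt. With 1 mouse per sex and group the difference was not tested. Globin-high neurons numbered 15 and 6 in the females and 3 and 21 in the males.

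Globin was also seen in cells that the comparisons did not use. The 3 endothelial-like cells of mouse 657 held 336 globin UMIs, 335 of them in 1 cell of 2718 UMIs, and the endothelial-like cells of the other mice held none. The macrophage-like cells of mouse 654 held 4 globin UMIs in 33 cells, at most 1 per cell. Those of 670 held 3 in 48 and those of 671 held 1 in 16. The 1 such cell of 657 and the 8 and 7 of the Ttpa+/+ mice held none, too few cells for a comparison. Cluster 18 held 3 globin UMIs in 654, 1 in 657, 2 in the Ttpa+/+ mouse 698 and 0 in 670, 671 and 699.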

How the results depend on the processing

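Of 710 recomputed values, 600 were counted as the same, 515 of them for single genes. Among counts of calls, shares and the deficient over Ttpa+/+ value, 85 were the same, 26 moved past the limits below and 4 changed sign. For single genes and globin-positive shares, being the same meant the same direction and side of the threshold, or direction alone where leaving out a mouse allowed no p. For counts of calls it meant a ratio within a set limit. For the share of UMIs in globin-high cells and the deficient over Ttpa+/+ value it meant a change under an SD between mice (21.2 points and 0.459). The share of globin UMIs in globin-high neurons (86.0%) was 79.7 to 88.0% with each mouse left out. The number of members called across the 6 sums between supplemented and Ttpa+/+ mice (4) was 24 of 24 with no filter on low counts, 0 without the top globin cell of each mouse and type, 0 without cells of 10 or more (fewer members then passed the filter), and 4 to 14 in leave-one-out fits (14 without 657 or 671). Between deficient and supplemented mice (0) it was 17 with no filter and 1 to 8 leaving out 1 mouse. Between females and males (0) it was 12 with no filter, 1 with doublets kept, 2 at resolution 0.5 and 4 to 15 leaving out 1 mouse. With 1 mouse left out, the lone mouse of its group is assumed to vary like the others, and the filter keeps more genes. No share of all genes called is given for those fits. Beyond that, the cause was not tested. The median deficient over Ttpa+/+ log2 fold change in PEP-like neurons (3.31) was 2.21 without the top cells and 0.35 without cells of 10 or more, by construction, and 2.79 to 4.01 leaving out 1 mouse. The globin-positive share (supplemented minus Ttpa+/+, 0.465 points) was −1.42 without thinning and 0.235 to 0.694 leaving out 1 mouse, and female minus male (0.231) was −0.69 without thinning, −0.093 at 2 or more UMIs and −0.13 to 0.485 leaving out 1 mouse.

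Among single members between supplemented and Ttpa+/+ mice in PEP-like neurons, Hba-a2 lost its call at resolution 0.5 (1.89, adjusted p = 0.0560, edgeR) and Hbb-bt when cells were thinned (4.43, adjusted p = 0.113). Signs turned without cells of 10 or more for Hba-a2 (−0.19 in PEP-like, −0.32 in all neurons), for deficient over supplemented Hba-a1 (0.18) and Hbb-bs (0.78), and for females over males Hba-a1 (0.16) and Hbb-bs (0.55); Hbb-bt deficient over supplemented was 0.10 without the top cells. With no member called between deficient and supplemented mice, leaving out 1 mouse spread the values in all neurons over −2.05 to 0.86 (Hba-a1), −1.43 to 0.70 (Hba-a2), −1.82 to 1.10 (Hbb-bs) and −1.61 to 1.44 (Hbb-bt), in each case lowest without 654 and highest without 670. For females over males they were −2.31 to 0.39, −1.77 to 0.068, −2.45 to 0.11 and −2.96 to 0.93.

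List genes with a fold change near 0 also changed sign. Ngb was −0.027 with stricter cell filters, −0.024 at resolution 0.5 and −0.0069 with gated cells. Cygb was 0.0016 with DESeq2, 0.043 with limma-voom, 0.046 with a sex term, 0.0057 with stricter filters, 0.19 thinned, 3.9e-05 and 0.0039 at resolutions 0.5 and 2, 0.10 gated and 0.0014 without the top cells. Bnip3l was −0.0032 with no filter, −0.0025 with doublets kept, −0.0034 with stricter filters and −0.0098 gated. Thinned, Abcb10 was 0.021 and Lrp1 −0.31. Leaving out 1 mouse gave −0.059 to 0.10 for Ngb, −1.25 to 0.23 for Hbq1b, −0.31 to 0.42 for Cygb, −0.11 to 0.19 for Prdx2, −0.12 to 0.14 for Bnip3l, −0.42 to 0.030 for Alas1, −0.043 to 0.40 for Ldb1, −0.070 to 0.29 for Zbtb7a and −0.63 to 0.10 for Lmo2. None of these genes was called in any fit listed here. No paired analysis was possible because the mice carry no replicate numbers shared between groups; each group has 1 female and 1 male, and with sex as a term the number of members called was 4 between supplemented and Ttpa+/+ mice and 0 between deficient and supplemented mice. Depth limits the low levels: 3 UMIs are 0.162 to 0.252 CPM over all neurons of a mouse, so an absent Hbb-bt molecule in other cells sets only an upper limit.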
